A study of Mus musculus with 48 samples.

Results

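Enteroendocrine cells (EECs) sorted from the colon were compared with EECs sorted from the ileum of the same mice. The members were the libraries labelled as colon and rectum or as ileum, 32 of the 48 libraries of the series, and they came from 16 mice that each gave 1 library per region. Ileum means the distal 15 cm of small intestine, and the colon libraries included the rectum. The mice were lean males of the Neurod1-cre-eYFP strain on a C57BL6 background, about 20 weeks old at surgery and fed standard chow except for liquid diet around the operation. Of the 16 mice, 5 were sham-operated and fed ad libitum (S_al), 5 were sham-operated and fed to the weight of the operated animals (S_wm), and 6 had a vertical sleeve gastrectomy (VSG), which removes most of the stomach. All mice received analgesic and antibiotics after surgery, and only VSG mice received vitamin B12 injections. Roughly 6 weeks after surgery the mice were fasted overnight, then killed some 15 min after glucose by gavage (3 g/kg). Each mouse was used as a block and the regional difference was fitted within each condition, so every difference below is a within-animal difference averaged over the 3 conditions with equal weight.

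EECs are the scattered hormone-secreting cells of the gut epithelium. They sense luminal nutrients and microbial products through G protein-coupled receptors, transporters and channels, and release peptides or serotonin by exocytosis of dense-core granules. Their hormones differ along the gut: K cells with GIP and I cells with CCK are known mainly from the upper small intestine, N cells with neurotensin from the ileum, L cells with GLP-1 and PYY from the ileum and colon, and enterochromaffin cells with serotonin from all regions. Neurod1 is a transcription factor of EEC precursors and mature EECs, and because the reporter is switched on by Cre it marks every cell in whose history Neurod1 drove Cre. The sort kept EYFP-positive, CD45-negative, viable cells.

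Library totals were between 4648651 and 11478914 counts (median 6559605.5), and 14468 of 53465 listed genes were tested. The first principal component held 86.5% of the variance of the 500 most variable genes and separated the regions. The nearest library was of the same region for 32 of 32 libraries and of the same condition for 14. For mouse 12 the tissue labels and the description codes of the ileum and colon libraries were crossed. Its ileum-labelled library correlated at 0.932 with the mean of the other ileum libraries and at 0.381 with that of the colon, and its colon-labelled library at 0.948 with the colon and 0.327 with the ileum. The tissue labels were used, and without mouse 12 the number of genes called below was 7258 instead of 7441. Colon tissue was released with a higher EDTA concentration than ileum tissue, so region and digestion cannot be told apart. The library index was also unequal, since 11 of 16 colon libraries had the i5 index D504 and 15 of 16 ileum libraries had D501 or D503. Only D503 held several libraries of each region (8 ileum and 4 colon). In a fit on D503 alone, without the mouse block, 42 of 232 calls among the genes followed by name were lost and 1 turned, and with the index as a covariate 24 were lost. For the genes called below, these losses, and differences that moved by over 1.5-fold in either fit or without 1 mouse, are given beside the genes.

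The EEC markers were present in both regions. The granins Chga and Chgb, acidic proteins of dense-core granules, ranged from 13385 to 32958 and from 18080 to 45745 CPM (counts normalised to the scaled library size) in the ileum and from 12536 to 38985 and from 15615 to 58585 in the colon. The EEC transcription factors Insm1 and Fev had median levels of 192 and 92.0 CPM in the ileum and 225 and 94.3 CPM in the colon, and neither passed the test, although Insm1 did without mouse 11 (0.25, edgeR adjusted p = 0.0426) or mouse 32 (0.27, adjusted p = 0.0171). Neurod1 itself was lower in the colon, with a lowest, median and highest value of 221, 375 and 682 CPM in the ileum against 155, 239 and 378 in the colon (log2 difference -0.64 ± 0.11, SE, edgeR adjusted p = 3.83e-05). Its locus overlaps Cerkl on the same strand. Other EEC genes, given further below, were lower in the colon by more, namely Scg2 (log2 difference -3.8), Pcsk1 (-2.7), Isl1 (-2.5) and Rfx6. In their lists, granins and prohormone processing genes had 4 higher and 6 lower of 13 tested. EEC transcription factors had 7 higher and 10 lower of 23. Over all genes tested, 26.6% were called higher and 24.9% lower in the colon. The levels above therefore do not show that the sorts were equally enteroendocrine.

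Markers of other epithelial cells were present too and moved with region. Their counts of called genes stand beside 26.6% called higher and 24.9% called lower in the colon over all genes tested. Summed enterocyte markers ran from 6247 to 22798 CPM in the ileum (median 16227) and from 960 to 1621 in the colon (median 1146), and 15 of 15 were lower in the colon. Paneth cell markers summed to 2289 to 14918 CPM (median 4328) in the ileum and to 121 to 395 (median 266) in the colon, with 10 of 10 lower, and crypt stem and cycling markers to 1178 to 4216 (median 2297) and 163 to 381 (median 236), with 12 of 12 lower. Goblet markers summed to 1592 to 9425 CPM (median 4062) in the ileum and to 3206 to 13993 (median 9570) in the colon, with 8 of 10 higher and 0 lower, and colonocyte markers to 173 to 964 (median 398) and 890 to 2821 (median 2196), with 9 of 12 higher and 3 lower. Because EECs express some of these genes themselves and other cells some of the EEC genes, the part of such cells in the results below was not tested. In these bulk samples fewer cells of a type and less RNA per cell cannot be told apart.

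**Figure D1:**
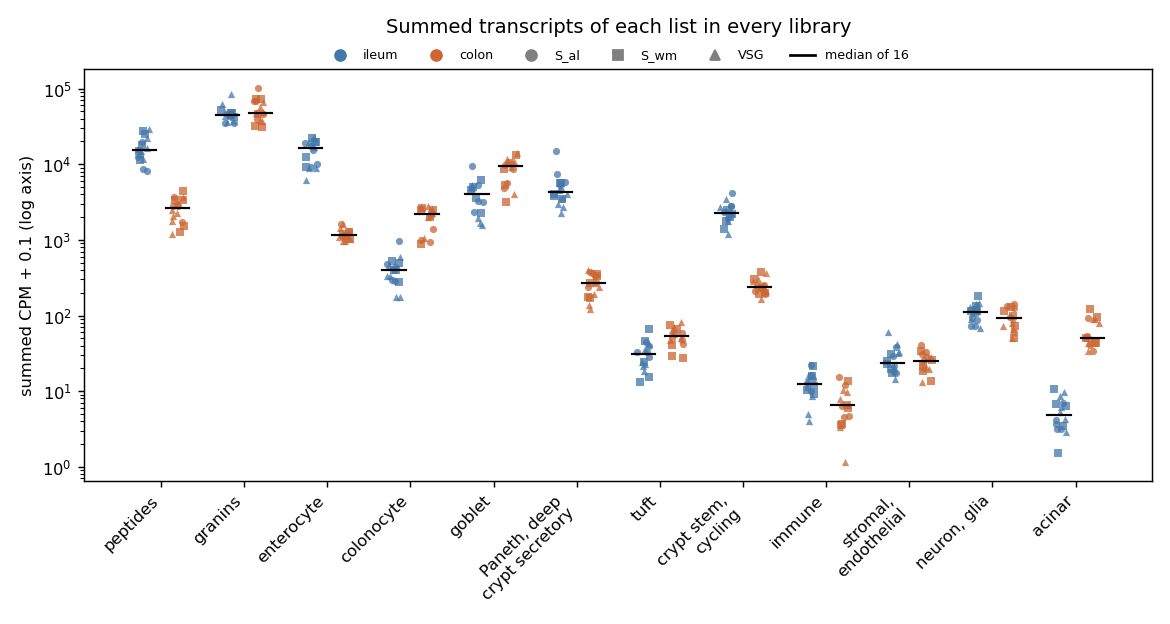
Summed CPM + 0.1 (log axis) of each gene list in each of the 32 libraries; blue is ileum, orange is colon, the symbol gives the condition and the black line the median of 16. Peptide, enterocyte, Paneth and crypt stem sums lay lower in all 16 colon libraries than in the ileum library of the same mouse, granin sums overlapped, and colonocyte sums were higher in the colon in 16 of 16 mice.

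Across all genes, 7441 of the 14468 tested (51.4%) differed between the regions at an adjusted p under 0.05 by edgeR's quasi-likelihood test, 3842 (26.6%) higher and 3599 (24.9%) lower in the colon. By a test against a 2-fold bound, 1853 genes (12.8%) differed by more than 2-fold, 914 higher and 939 lower. For 1074 genes (7.42%) the 16 colon values did not overlap the 16 ileum values. The median difference over all genes was 0.01 and the median absolute difference 0.35 on the log2 scale, so each list below is read against this background.

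Peptide hormone transcripts were mostly lower in colonic EECs, with a small group that was far higher. Of 25 listed genes for peptide hormones and neuropeptides, 16 had enough counts to be tested, of which 11 were lower, 4 were higher and 1 (Gcg) did not pass. That is 93.75% called, against 51.4% of all genes, and the median difference was -3.26 against 0.01. Over 2-fold, 10 were lower and 3 higher, and in 10 of the 16 the regions did not overlap (62.5% against 7.42%). Members nearly absent from the colon, such as Ucn3 and Nmu, could pass the filter on low counts only through the ileum. Their direction was thus fixed by entry to the test, and these shares include them. The 9 genes not tested, Gast, Penk, Calca, Calcb, Gal, Npy, Vip, Grp and Nppc, had between 0 and 25 counts summed over the 16 libraries of either region. Summed over the list, peptide transcripts took 8143 to 28837 CPM in the ileum (median 15438) and 1202 to 4460 CPM in the colon (median 2622), lower in all 16 colon libraries than in the ileum of the same animal.

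Promoter sequence is shown for 4 of these genes, chosen because their levels lay far apart between the regions and the sequence holds no annotated exon, as the 250 bases before the RefSeq transcription start on GRCm38.p6. The first pair, Gip and Cck, belongs to the genes lower in the colon, and the second pair, Ppy and Insl5, to those higher. Capitals mark matches, on either strand, to AGATAA, a core bound by GATA factors, and to TTTATNG, a core bound by Cdx and posterior Hox factors. The second motif can overlap a TATA box, which is where the Ppy match lies.
Gip, chr11:96024295-96024544, plus strand: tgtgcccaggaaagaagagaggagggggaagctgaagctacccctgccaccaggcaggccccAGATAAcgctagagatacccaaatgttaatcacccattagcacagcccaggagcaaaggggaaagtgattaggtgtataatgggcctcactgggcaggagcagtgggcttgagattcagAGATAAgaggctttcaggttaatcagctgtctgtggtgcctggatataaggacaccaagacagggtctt
Cck, chr9:121495695-121495944, minus strand: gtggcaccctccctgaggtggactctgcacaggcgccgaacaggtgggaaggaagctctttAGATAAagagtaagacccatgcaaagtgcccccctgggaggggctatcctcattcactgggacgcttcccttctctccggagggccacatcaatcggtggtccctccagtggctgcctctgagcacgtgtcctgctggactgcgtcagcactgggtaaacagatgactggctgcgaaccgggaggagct
Ppy, chr11:102101320-102101569, minus strand: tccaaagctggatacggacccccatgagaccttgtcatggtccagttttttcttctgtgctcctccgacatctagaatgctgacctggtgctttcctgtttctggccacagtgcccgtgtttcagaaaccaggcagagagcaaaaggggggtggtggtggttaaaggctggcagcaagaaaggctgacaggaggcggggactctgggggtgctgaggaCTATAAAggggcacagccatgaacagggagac
Insl5, chr4:103027272-103027521, minus strand: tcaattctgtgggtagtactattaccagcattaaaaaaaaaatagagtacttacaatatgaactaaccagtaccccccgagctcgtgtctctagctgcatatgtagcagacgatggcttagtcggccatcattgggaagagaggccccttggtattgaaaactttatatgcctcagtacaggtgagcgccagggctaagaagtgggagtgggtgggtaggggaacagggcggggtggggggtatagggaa

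All 16 tested peptide genes had a window. AGATAA was found in a window of 5 of them (Gip, Cck, Nts, Tac1 and Insl5) and TTTATNG in 2 (Sct and Ppy), and CAAAGTNCA, a core bound by HNF4, in 0. These are counts of genes, some with several windows. Counted by window, 22.2%, 14.8% and 0% of the 27 windows of listed peptide genes held these letters, against 9.99%, 9.81% and 1.19% of all 32851 RefSeq promoter windows. Gip had 2 AGATAA matches. Sst, Ucn3, Ghrl, Cartpt, Nmu and Pyy, also lower in the colon, had no match in any window. The printed sequences therefore do not stand for all peptide genes lower in the colon. Insl5 had none before its upstream start, printed above, but 3 in the window before its downstream start (chr4:103026729-103026978), which runs over annotated exon sequence and is not printed. A match is a string of letters and says nothing about binding in these cells.

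**Figure D2:**
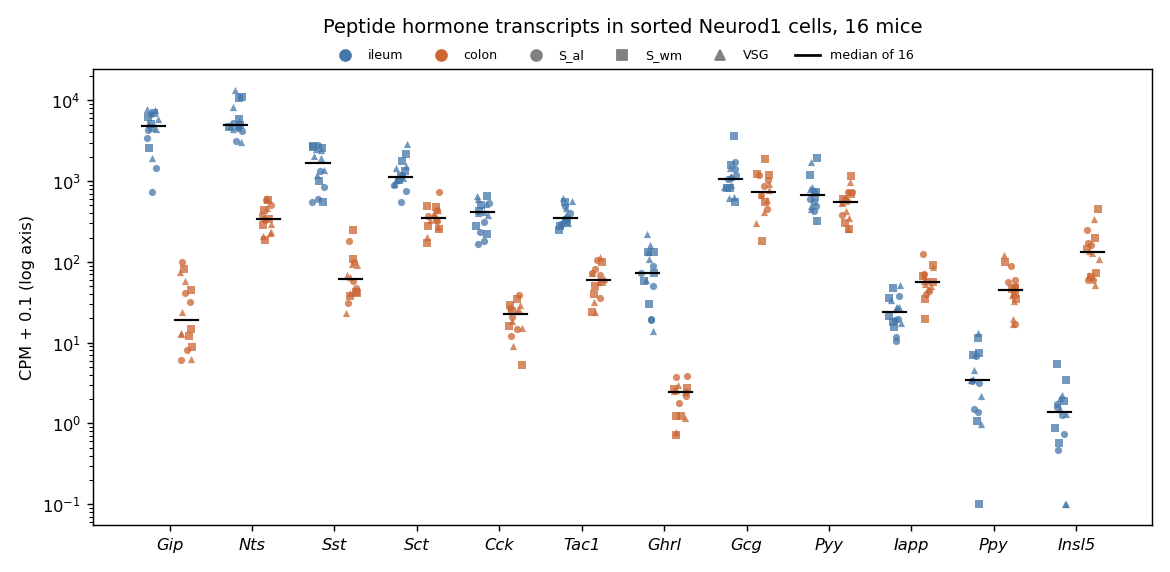
CPM + 0.1 (log axis) of 12 peptide genes in each of the 32 libraries; blue is ileum, orange is colon, the symbol gives the condition and the black line the median of 16. Gip, Nts, Sst, Cck, Tac1 and Ghrl did not overlap between the regions and were lower in the colon, Ppy and Insl5 did not overlap and were higher, and Gcg and Pyy overlapped.

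Gip, the incretin of K cells (ENSMUSG00000014351), fell from a lowest, median and highest value of 725, 4788 and 7757 CPM in the ileum to 6.02, 19.2 and 98.3 CPM in the colon. Its log2 difference was -7.41 ± 0.53 (SE, 16 mice, edgeR adjusted p = 2.68e-08), about 170-fold. Even the highest colon library lay below the lowest ileum library. Cck, which slows gastric emptying and contracts the gallbladder, went from 166, 411 and 662 CPM to 5.24, 22.6 and 38.7 (-4.20 ± 0.22, adjusted p = 5.11e-10). The ranges were again apart, as they were for Nts. With the index as a covariate the difference of Gip was -6.65.

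Nts encodes neurotensin, the peptide of ileal N cells, and ran at 3016, 4898 and 13434 CPM in the ileum and 186, 337 and 625 in the colon (-3.98 ± 0.13, edgeR adjusted p = 1.42e-16). It was lower by about 15.8-fold and in 16 of 16 mice. Sst, the inhibitory hormone of D cells, had 557, 1652 and 2818 CPM in the ileum and 23.3, 62.1 and 251 in the colon (-4.44 ± 0.19, adjusted p = 1.82e-11). Sct, which stimulates bicarbonate secretion, fell less, from 548, 1131 and 2851 CPM to 173, 353 and 737 (-1.77 ± 0.16, adjusted p = 1.4e-07), and its ranges overlapped although it was lower in the colon of 16 of 16 mice. Each of these genes had counts in all 32 libraries, and within index D503 the difference of Sst was -5.04.

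Tac1, the precursor of substance P made in part by enterochromaffin cells, had 247, 345 and 619 CPM in the ileum and 23.9, 58.8 and 114 in the colon (-2.69 ± 0.22, edgeR adjusted p = 9.57e-08). Ghrl, the precursor of ghrelin, had 13.9, 72.4 and 222 CPM against 0.61, 2.35 and 3.81 (-5.12 ± 0.18, adjusted p = 1.91e-14). Both were lower in all 16 mice with no overlap. Ghrl is overlapped by unnamed transcripts on the opposite strand, and whether the deposited counts used the strand of the reads was not stated. Among low-expressed members, Ucn3 (urocortin 3) went from 5.27, 20.2 and 43.8 CPM to 0, 0.386 and 1.37 (-5.43 ± 0.27), and Cartpt from 2.77, 14.4 and 42.6 to 0, 0.554 and 1.69 (-4.31 ± 0.36). Nmu (neuromedin U) had 164 counts over the 16 ileum libraries and 11 over the colon libraries (-3.84 ± 0.77, adjusted p = 0.00018), so that its size is poorly fixed, at -5.03 within D503 and -4.53 without mouse 13. Cartpt was at -3.48 with the index as a covariate.

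The L cell peptides Gcg and Pyy had the smallest regional differences of the 16 tested peptide genes in the paired fit. Gcg, the precursor of GLP-1, ran at 556, 1065 and 3660 CPM in the ileum and 180, 726 and 1873 in the colon. It was lower in the colon of 14 of 16 mice but did not pass the test (-0.60 ± 0.26, edgeR adjusted p = 0.0712). It did pass by limma-voom, by DESeq2 (adjusted p = 0.036), with all 48 libraries in the fit, without the filter on low counts, and without mouse 21 (0.0442) or mouse 31 (0.0482), and the adjusted p ran from 2.99e-17 (no filter) to 0.202 (library index as a covariate) over 25 alternatives. The first of these rests on an SE of 0.068 in place of 0.26, since without the filter the fit gave 303 of the 14468 genes an SE under 0.5 times its value with the filter. Pyy, the anorectic peptide of L cells, was at 318, 679 and 1907 CPM in the ileum and 256, 558 and 1155 in the colon (-0.41 ± 0.12, adjusted p = 0.00711). Its direction was seen in 12 of 16 mice, with a difference of 0.07 ± 0.21 in S_al, -0.63 ± 0.21 in S_wm and -0.68 ± 0.20 in VSG. The call was lost without the mouse block, by limma-voom and with all 48 libraries. Within index D503 both differences were larger, -1.05 ± 0.43 for Gcg (edgeR adjusted p = 0.123) and -0.88 ± 0.27 for Pyy (0.0338), and with the index as a covariate they were -0.72 ± 0.41 and -0.75 ± 0.14.

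Against these, 4 peptide genes were higher in the colon. Insl5, the relaxin-family peptide of colonic L cells, was at 0, 1.30 and 5.32 CPM in the ileum and at 51.1, 132 and 451 in the colon (6.66 ± 0.30, edgeR adjusted p = 5.75e-11), about 101-fold. Ppy, pancreatic polypeptide, was at 0, 3.33 and 13.2 CPM and at 16.9, 44.2 and 122 (3.67 ± 0.31, adjusted p = 7.65e-08). Neither gene overlapped between regions, and both were higher in 16 of 16 mice. Iapp (amylin) was at 10.3, 24 and 51.0 CPM and at 19.6, 56.9 and 125 (1.25 ± 0.25, adjusted p = 0.000569), higher in 15 of 16 mice with overlapping ranges. Adm (adrenomedullin) was low in both regions, with medians of 1.02 and 4.38 CPM (2.07 ± 0.32). Within D503 the difference of Ppy was 2.83.

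Per length, the make-up of the peptide transcripts differed between regions. Of the summed peptide TPM (counts normalised to gene length and library size) in the ileum, Gip took 35.3 ± 11.5% (SD, n = 16), Nts 26.6 ± 6.33%, Sst 12.1 ± 3.39%, Sct 11 ± 2.45%, Pyy 6.95 ± 2.98% and Gcg 4.85 ± 2.64%. In the colon, Pyy took 30.7 ± 4.28%, Sct 21.3 ± 6.75%, Gcg 17.9 ± 4.66%, Nts 10.8 ± 2.94% and Insl5 6.80 ± 2.57%, and Gip 1.69 ± 1.26%. Neighbours in this order were not all separable. In the ileum Gip was above Nts in 10 of 16 mice and Sst above Sct in 10, while Nts was above Sst in 15. In the colon Pyy was above Sct in 13 mice, Gcg above Nts in 14 and Sct above Gcg in only 7. So the rise of the Pyy and Gcg shares stood beside levels that did not rise, since the sum of all peptides was lower in the colon.

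**Figure D3:**
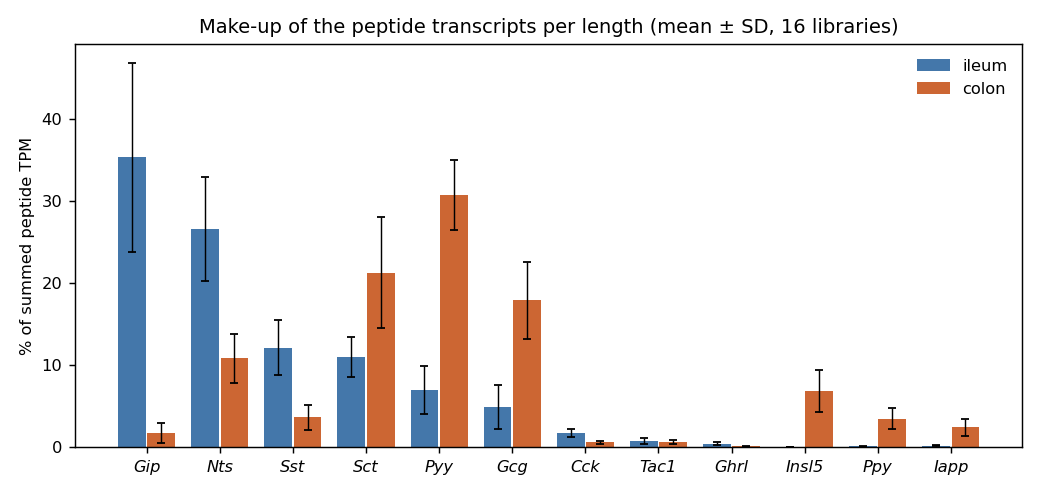
Share of each peptide gene in the summed peptide TPM, mean of 16 libraries with SD as the error bar; blue is ileum, orange is colon. Gip (35.3%) and Nts (26.6%) led in the ileum, and Pyy (30.7%), Sct (21.3%) and Gcg (17.9%) in the colon.

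Genes for serotonin synthesis and handling moved in both directions, 5 higher and 5 lower of 11 tested (90.9% called). Tph1, the rate-limiting enzyme of serotonin synthesis in enterochromaffin cells, was at 602, 1082 and 2047 CPM in the ileum and 1532, 2721 and 4942 in the colon (1.52 ± 0.13, edgeR adjusted p = 9.76e-09), higher in 16 of 16 mice. The next enzyme, Ddc, rose less (0.50 ± 0.10), as did Maoa (0.71 ± 0.18), which breaks serotonin down, and Pts (0.38 ± 0.11), which makes the cofactor of Tph1. The vesicular transporters diverged: Slc18a2 fell from 4.60, 13.7 and 28.5 CPM to 0.187, 1.02 and 4.74 (-3.25 ± 0.34, adjusted p = 8.94e-08), while the more abundant Slc18a1 had medians of 247 and 306 CPM and did not pass (0.22 ± 0.10, adjusted p = 0.0795). The reuptake transporter Slc6a4 was lower (-1.31 ± 0.18), as were Gch1 (-0.43 ± 0.09) and Maob (-0.28 ± 0.10). The call for Maoa did not hold with the library index as a covariate, those for Pts and Maob not within index D503, and that for Maob not without mouse 12 or mouse 16 (edgeR adjusted p = 0.0754 and 0.0606). Slc18a1 passed without mouse 32 (0.29, adjusted p = 0.0047).

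Granins and prohormone processing genes had 4 higher, 6 lower and 3 not passing of 13 tested (76.9% called), and their summed level overlapped between regions. Pcsk1, the convertase that cuts proglucagon to GLP-1 and most gut prohormones, was at 522, 748 and 1052 CPM in the ileum and 64.6, 112 and 170 in the colon (-2.74 ± 0.10, edgeR adjusted p = 7.59e-15). Scg2, a granin and peptide precursor, fell from 261, 364 and 670 CPM to 9.96, 32.3 and 53.1 (-3.77 ± 0.19). Neither overlapped between regions. In the other direction Pcsk1n (proSAAS), which binds and inhibits that convertase, rose from 67.0, 122 and 262 CPM to 367, 576 and 990 (2.34 ± 0.13, adjusted p = 3.03e-11), although its locus overlaps Eras on the other strand. Pam, which amidates peptides, rose by 0.58 ± 0.08 and Resp18 by 0.34 ± 0.11, and Cpe and Scg3 fell (-0.89 ± 0.10 and -1.15 ± 0.11). Chga passed narrowly (0.29 ± 0.12, adjusted p = 0.0389) in 10 of 16 mice and lost the call in 11 of the 16 fits that left out 1 mouse, and Chgb did not pass (0.21 ± 0.12, adjusted p = 0.158). Within D503 the calls for Chga and Resp18 were lost, and with the index as a covariate Chgb passed.

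Transcription factors of the EEC lineage had 7 higher, 10 lower and 6 not passing of 23 tested (73.9% called). Higher in the colon were Pax4 (1.48 ± 0.12, 10.3 to 29.5 CPM at the median), which acts early in EEC specification, Atoh1 (1.65 ± 0.20), the secretory lineage factor that goblet cells also use, Gfi1 (1.78 ± 0.36) and Foxa1 (0.66 ± 0.08). Lower were Isl1 (21, 62.6 and 84.6 CPM in the ileum and 3.63, 9.89 and 19.5 in the colon, -2.49 ± 0.12, edgeR adjusted p = 3.02e-14), Etv1 (-1.30 ± 0.17) and Pax6 (-1.08 ± 0.10). Isl1 and Pax6 are known to act in peptide-producing EECs. Rfx6 (-0.92 ± 0.11), Lmx1a, a factor of enterochromaffin cells (-0.38 ± 0.11), and Nkx2-2 (-0.32 ± 0.10) were also lower. With the index as a covariate the calls for Lmx1a and Nkx2-2 were lost, and that for Lmx1a also within D503. Rfx6, Lmx1a and Nkx2-2 lie outside the rule for naming genes and were chosen after their values were seen.

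Factors that pattern the gut tube followed region closely, 6 higher and 13 lower of 23 tested (82.6% called, 8 without overlap). Gata4, which in the gut is a factor of the small intestine, was at 23.2, 50.3 and 77.1 CPM in the ileum and 0, 0.549 and 2.49 in the colon (-6.02 ± 0.33, edgeR adjusted p = 3.15e-10), and its relative Gata5 fell by 5.12 ± 0.21. Creb3l3 (-4.34 ± 0.19) and Maf (-4.23 ± 0.30), which enterocytes also express, fell with them. Among those that rose, Tfcp2l1 went from 17.8, 34.0 and 57.2 CPM to 155, 266 and 348 with no overlap (2.88 ± 0.17), and Klf4 rose by less (0.72 ± 0.18), a call lost with the index as a covariate (edgeR adjusted p = 0.111) and within D503 (0.0569). Cdx2, the factor shared by all intestine, had medians of 142 and 145 CPM and did not pass (-0.02 ± 0.06, adjusted p = 0.78). Chosen after their values were seen, Hnf4g (-2.34 ± 0.16) fell more than Hnf4a (-0.51 ± 0.08), and Cdx1 rose (0.56 ± 0.07).

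Hox genes, which record position along the body axis, were mostly higher in the colon. Of 39 listed, 22 were tested, of which 20 rose, 0 fell and 2 did not pass (90.9% called), and 11 did not overlap (50% against 7.42%). Genes nearly silent in the ileum, such as Hoxa7, Hoxa10 and Hoxb13, could pass the filter on low counts only through their colon libraries. Their direction was thus fixed by entry to the test, and these shares include them. Hoxb13, the most posterior gene of its cluster, was at 0, 0 and 2.79 CPM in the ileum and 24.4, 116 and 204 in the colon (9.24 ± 0.33, edgeR adjusted p = 9.12e-13). Hoxa7 (8.08 ± 0.26), Hoxa10 (7.57 ± 0.32), Hoxa5 (6.05 ± 0.33) and Hoxa13 (5.02 ± 0.22) were nearly silent in the ileum, with ileum medians of at most 0.678 CPM. Hoxa9 had 3 counts over all ileum libraries and 1645 over the colon libraries, and Hoxa6 had 1 and 247. Within D503 Hoxa10 was at 6.59, and Hoxa5 was at 6.75 without mouse 21 and Hoxb13 at 10.02 without mouse 32.

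Rises were seen in 3 of the clusters, and no test was made between clusters. All 9 tested genes of the Hoxa cluster and all 3 of Hoxd rose, the smallest of Hoxa being Hoxa11 (1.75 ± 0.49) and Hoxa4 (1.86 ± 0.53), with Hoxd8 at 5.22 ± 0.42, Hoxd13 at 5.66 ± 0.73 and Hoxd11 at 2.97 ± 0.61. In the Hoxb cluster 8 of 9 rose, and apart from Hoxb13 they rose by between 0.84 and 2.40, Hoxb3 by 0.84 ± 0.17, Hoxb5 by 1.26 ± 0.25, Hoxb7 by 1.79 ± 0.15 and Hoxb9 by 2.39 ± 0.29. Hoxb4, between them, had medians of 4.19 and 4.10 CPM (0.01 ± 0.19, edgeR adjusted p = 0.959). Hoxc6, the only Hoxc gene tested, did not pass (-0.46 ± 0.43). Summed counts went from 453 to 15653 for Hoxa, 9654 to 44317 for Hoxb, 157 to 2516 for Hoxd and 288 to 293 for Hoxc. Genes of the clusters lie close together and share antisense transcripts, so counts of neighbours are not independent, and the calls for Hoxa4, Hoxb2, Hoxb3 and Hoxd11 did not hold within index D503, nor those for Hoxa4 and Hoxd11 with the index as a covariate. Hoxa11 was at 2.60 and Hoxd13 at 4.63 within D503, Hoxd13 was at 5.02 with the index as a covariate, and Hoxd11 was at 1.95 and 2.08 in these fits and at 3.96 without mouse 13.

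**Figure D4:**
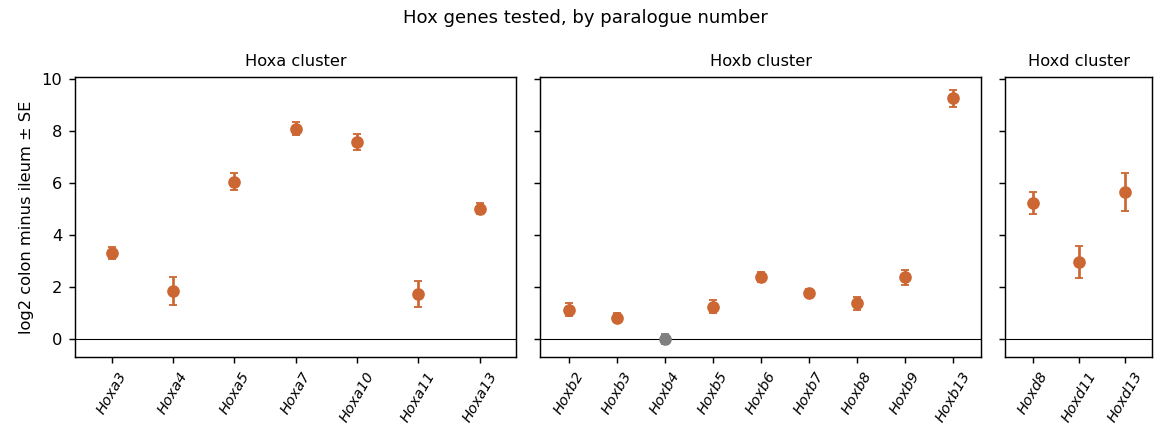
Log2 difference, colon minus ileum, of the tested Hoxa, Hoxb and Hoxd genes in paralogue order, with SE as the error bar; orange passed the test, grey did not. Hoxa6 and Hoxa9, with 1 and 3 ileum counts, and Hoxc6 are left out; Hoxb13 (9.24) and Hoxa7 (8.08) stand at the top and Hoxb4 (0.01) at 0.

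Nutrient-sensing receptors had 5 higher, 7 lower and 3 not passing of 15 tested (80.0% called). Ffar1, the receptor for long-chain fatty acids, fell from 55.9, 97.6 and 230 CPM to 5.06, 17.6 and 25 (-2.68 ± 0.16, edgeR adjusted p = 1.85e-10), with no overlap. The calcium and amino acid sensor Casr (-1.56 ± 0.16), the short-chain fatty acid receptor Ffar3 (-2.04 ± 0.33) and the bile acid receptor Gpbar1 (-1.11 ± 0.32) were also lower. Olfr78, an ectopically expressed olfactory receptor reported to respond to short-chain fatty acids, rose from 1.45, 5.96 and 8.44 CPM to 23.4, 45 and 66.0 (2.92 ± 0.16, adjusted p = 4.84e-13), about 7.58-fold, but the annotation places Olfr560 in the same interval and strand. Olfr558 (1.34 ± 0.17), the lactate receptor Hcar1 (0.85 ± 0.29) and the ketone and butyrate receptor Hcar2 (1.47 ± 0.50) rose from low levels, the last pair without a call within D503 or with the index as a covariate. Chosen after their values were seen, Ffar2 (-0.50 ± 0.11) and the lipid amide receptor Gpr119 (-0.99 ± 0.23) were lower, and Ffar4 was not called (-0.11 ± 0.15, adjusted p = 0.574). The calls for Gpbar1 (edgeR adjusted p = 0.0829) and Ffar2 were lost within D503, and that for Ffar2 also with the index as a covariate.

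Receptors for hormones and transmitters had 13 higher, 6 lower and 9 not passing of 28 tested (67.9% called). Cnr1, the cannabinoid receptor, was at 6.23, 32.2 and 64.6 CPM in the ileum and 0, 0.383 and 1.35 in the colon (-6.14 ± 0.40, edgeR adjusted p = 1.54e-09), and the muscarinic receptor Chrm3 fell by 3.54 ± 0.20. The somatostatin receptor Sstr5 (-1.45 ± 0.15) and the galanin receptor Galr1 (-1.12 ± 0.14) were lower as well. Agtr1a, the angiotensin II receptor, was nearly absent from the ileum (0, 0, 0.672 CPM) and at 0.594, 5.20 and 17.6 in the colon (5.17 ± 0.52). Rxfp4, the receptor for INSL5, rose with its ligand from low levels (medians 0.056 and 1.58 CPM, 3.29 ± 0.58), as did the CCK receptor Cckar (medians 0 and 1.14 CPM, 4.45 ± 0.74). Htr3a, a serotonin-gated channel, had 3 counts over the ileum libraries and 315 over the colon libraries. Chosen after their values were seen, Glp1r (2.46, 9.87 and 27.1 CPM against 18, 34.6 and 75.7, 1.87 ± 0.16, adjusted p = 1.21e-09), Htr4 (1.58 ± 0.17) and the CGRP receptor subunit Ramp1 (2.64 ± 0.18) were higher in 16 of 16 mice. Cnr1 was at -5.42 and Rxfp4 at 4.75 with the index as a covariate, and Agtr1a was at 4.31 within D503. Without mouse 12 Cnr1 was at -6.80, without mouse 13 Rxfp4 was at 3.98, and without mouse 21 Agtr1a was at 5.90.

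Sensory and excitability channels had 12 higher, 16 lower and 7 not passing of 35 tested (80.0% called), and a pair of mechanical and chemical sensors lay at opposite ends. Piezo2, a stretch-activated channel, was at 0, 0.511 and 2.52 CPM in the ileum and 41.8, 111 and 316 in the colon (7.77 ± 0.26, edgeR adjusted p = 1.47e-13). Trpa1, the irritant receptor of enterochromaffin cells, was at 52.2, 111 and 209 CPM in the ileum and 0, 0.523 and 2.25 in the colon (-7.56 ± 0.23, adjusted p = 1.91e-14). Both were without overlap and in the same direction in 16 of 16 mice, with differences of 7.03 and -6.95 within index D503. The background potassium channel Kcnk3 rose from 0.727, 2.45 and 6.17 CPM to 38.2, 73.8 and 118 (4.90 ± 0.15), and the calcium channel subunit Cacna1e by 2.41 ± 0.52. The calcium channel Trpv6 had 2 counts over the ileum libraries and 215 over the colon libraries. Trpc5 (-3.97 ± 0.57) and Trpm2 (-2.46 ± 0.20) fell. Scn2a (-1.54 ± 0.61, adjusted p = 0.0387) turned to 0.33 within D503, lost its call with the index as a covariate and in 10 of the 16 fits that left out 1 mouse, and was at -2.16 without mouse 32. With the index as a covariate Cacna1e lost its call (1.69) and Trpc5 was at -3.30. The subunits of the ATP-sensitive potassium channel, Kcnj11 (-1.36 ± 0.19) and Abcc8 (-1.24 ± 0.10), were lower and the T-type calcium channel Cacna1h (1.82 ± 0.12) higher, all 3 chosen after their values were seen, and Kcnj11 was at -2.29 within D503.

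**Figure D5:**
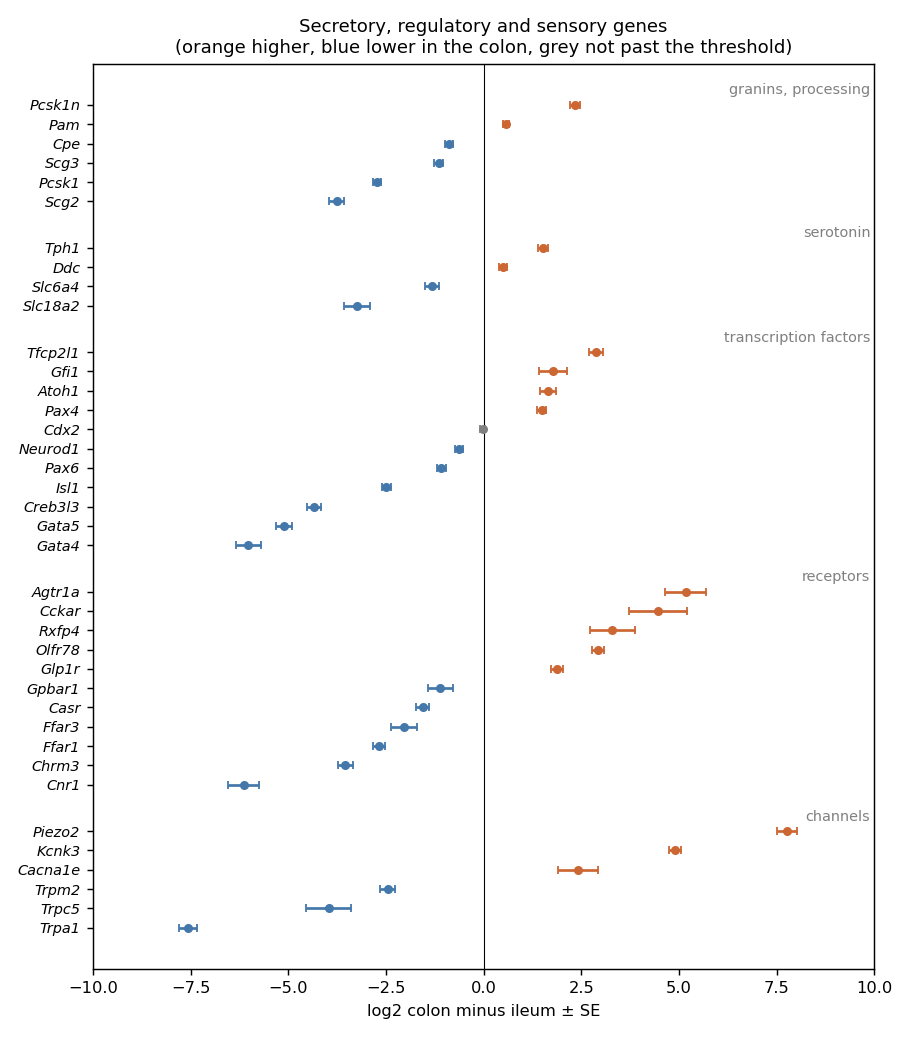
Log2 difference, colon minus ileum, with SE as the error bar, for selected granin, serotonin, transcription factor, receptor and channel genes; orange was higher in the colon, blue lower, grey did not pass. Piezo2 (7.77) and Trpa1 (-7.56) mark the ends of the scale, and Cdx2 (-0.02) lies at 0.

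Several groups are shared between EECs and the absorptive cells around them, and the enterocyte and colonocyte marker sums given above moved in the same directions. Nutrient transporters had 8 higher and 14 lower of 22 tested (100% called). The small intestinal sugar and amino acid carriers were lower, Slc2a2 by 4.77 ± 0.45, Slc7a9 by 4.12 ± 0.32, Slc6a19 by 3.23 ± 0.12 and Slc6a20a by 3.15 ± 0.38. The glucose cotransporter Slc5a1 (259, 715 and 1212 CPM in the ileum, 101, 159 and 207 in the colon, -2.12 ± 0.19) and the peptide transporter Slc15a1 (-1.74 ± 0.11), chosen after their values were seen, were lower with no overlap. The glucose carrier Slc2a1 rose (2.38 ± 0.10), as did the short-chain fatty acid and monocarboxylate carriers Slc5a8 (1.87 ± 0.26) and Slc16a1 (1.63 ± 0.11) and the chloride exchanger Slc26a3 (1.75 ± 0.24). Slc7a9 was at -3.33 within D503 and Slc6a20a at -3.77 with the index as a covariate. Bile acid and vitamin B12 uptake had 1 higher and 10 lower of 12 tested (91.7% called), among them the ileal bile acid-binding protein Fabp6 (31.4, 133 and 832 CPM against 0.122, 1.63 and 6.34, -6.68 ± 0.41), Fgf15 (-5.43 ± 0.60), Abcc2 (-5.42 ± 0.32) and the vitamin B12 receptor Cubn (-5.19 ± 0.48). Abcc3 was higher (0.62 ± 0.12), and the bile acid sensor Nr1h4, chosen after its value was seen, did not differ detectably (0.02 ± 0.11, edgeR adjusted p = 0.873). The size for Fgf15 depended on the fit, at -8.32 with the index as a covariate, -8.98 within D503, -6.71 by DESeq2, -6.83 without mouse 13 and -6.48 without mouse 29. Fabp6 was at -7.28 and Cubn at -5.88 with the index as a covariate, Abcc2 was at -4.69 within D503, and the call for Abcc3 was lost within D503 (edgeR adjusted p = 0.0634).

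Mineralocorticoid and sodium absorption genes had 8 higher, 1 lower and 3 not passing of 12 tested (75% called). The subunits of the epithelial sodium channel rose, Scnn1b from 0, 0 and 0.782 CPM to 5.33, 8.84 and 13.3 (7.66 ± 0.45, edgeR adjusted p = 7.67e-10), Scnn1g by 4.30 ± 0.74 and Scnn1a by 2.57 ± 0.17. Hsd11b2, which protects the mineralocorticoid receptor from glucocorticoids, rose from 5.75, 11.1 and 24.2 CPM to 76.6, 156 and 247 (3.73 ± 0.20), and the glucocorticoid receptor Nr3c1 fell (-0.60 ± 0.07). Mucosal defence had 11 higher and 10 lower of 26 tested (80.8% called). Retnlb, a goblet cell product (7.17 ± 0.40), Tlr4, the receptor for lipopolysaccharide (1.13 to 30.5 CPM at the median, 4.72 ± 0.19), Saa1 (3.8 ± 0.30) and Il1r1 (3.05 ± 0.29) were higher. Nos2 (-5.40 ± 0.40) and the antibacterial lectins Reg3a (-5.17 ± 0.48), Reg3g (-4.68 ± 0.35) and Reg3b (-3.99 ± 0.35) were lower, although reads of the Reg3 genes can be shared between paralogs. Within D503 Scnn1b was at 6.37, Scnn1g at 3.58 and Reg3a at -2.86, and with the index as a covariate Scnn1g was at 5.10 and Retnlb at 6.42. Scnn1g was at 5.03 without mouse 27, Retnlb at 7.80 without mouse 31 and Reg3a at -5.99 without mouse 30.

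Signalling and wiring genes were split as well. Exocytosis genes had 13 higher, 7 lower and 11 not passing of 31 tested (64.5% called). Cplx1, a clamp of the fusion complex, fell from 21.5, 32.6 and 51.1 CPM to 0, 1.05 and 2.78 (-4.99 ± 0.27, edgeR adjusted p = 1.24e-11), whereas the other falls were small, Syt13 by 0.56 ± 0.12, Stx1a by 0.51 ± 0.11 and Unc13b by 0.44 ± 0.07. Syt4 (3.11 ± 0.55), Sytl4 (1.77 ± 0.21), Sytl2 (1.67 ± 0.19, also in the goblet list) and Syt14 (1.21 ± 0.14) rose. Among cyclic nucleotide genes (11 higher and 8 lower of 23 tested, 82.6% called), adenylyl cyclases went both ways: Adcy8 fell from 38, 59.5 and 112 CPM to 0.414, 1.75 and 3.90 (-4.90 ± 0.16, adjusted p = 6.86e-17), Adcy1 fell by 1.92 ± 0.14 and Adcy2 by 0.59 ± 0.10, while Adcy5 rose from 0.134, 0.733 and 3.91 to 9.63, 21.2 and 32.9 (4.24 ± 0.27). Rapgef3 (1.76 ± 0.27), a cAMP-gated exchange factor, and the phosphodiesterases Pde10a (1.61 ± 0.34) and Pde4a (1.25 ± 0.38) rose, and Pde4b fell (-1.03 ± 0.34). The calls for Stx1a (edgeR adjusted p = 0.0674), Syt4 (0.055), Pde4a and Pde4b were lost within D503, and those for Stx1a (0.126) and Pde4b also with the index as a covariate. Syt4 was at 2.40 and 2.12 in these fits, and Adcy5 at 3.54 within D503.

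Synaptic adhesion and axon guidance genes had 16 higher and 6 lower of 25 tested (88.0% called). The Slit receptors Robo1 (0, 0 and 1.07 CPM in the ileum, 9.51, 21.5 and 52.8 in the colon, 8.41 ± 0.34, edgeR adjusted p = 5.27e-13) and Robo2 (4.39 ± 0.23), the semaphorin Sema3e (5.51 ± 0.30) and the low-expressed Cntn3 (3.78 ± 0.78) were higher. The semaphorin receptor Nrp1 (-2.87 ± 0.15), the neurotrophin Bdnf (-2.52 ± 0.21), the ligand Slit3 (-1.90 ± 0.33) and the artemin receptor Gfra3 (-1.73 ± 0.13) were lower. Robo1 was at 7.58 and Robo2 at 3.65 within D503, and Cntn3 at 4.53 without mouse 27. Clock genes had 9 higher and 4 lower of 16 tested (81.2% called), led by Bhlhe41 (3.79 ± 0.44) and the output gene Dbp (1.70 ± 0.11), with Nr1d1 (0.94 ± 0.09) and Nr1d2 (0.63 ± 0.08) also higher and Nfil3 (-1.27 ± 0.16) lower. Npas2 (-0.36 ± 0.13), Cry1 (-0.30 ± 0.12) and Clock (-0.19 ± 0.06) fell by little, Arntl, chosen after its value was seen, did not pass (-0.15 ± 0.12), and Dbp and Nr1d1 overlap Sphk2 and Thra on the other strand. The calls for Npas2, Cry1 and Clock were lost within D503 and those for Npas2 and Cry1 with the index as a covariate, Npas2 also lost its call without mouse 21 (edgeR adjusted p = 0.0537), and Cry1 lost it in 8 of the 16 fits that left out 1 mouse. Immediate early genes, read shortly after gavage, had 2 higher, 6 lower and 11 not passing of 19 tested (42.1% called, against 51.4% of all genes). Egr2 (-2.68 ± 0.34), Nr4a3 (-2.11 ± 0.48), Nr4a2 (-2.04 ± 0.13) and Zfp36 (-0.69 ± 0.14) were lower and Fosl1 (1.57 ± 0.58) and Klf6 (0.32 ± 0.10) higher. Neither higher call held within D503 or with the index as a covariate, and that for Fosl1 was also lost without mouse 13 (edgeR adjusted p = 0.0608), mouse 27 (0.0557) or mouse 29 (0.0695). Within D503 the call for Zfp36 was lost, Egr2 was at -2.03 and Nr4a3 at -2.77. Of 7 mitochondrially encoded subunits tested, 6 were higher by 0.33 to 0.79, mt-Co1 by 0.79 ± 0.10, mt-Nd6 by 0.45 ± 0.13, mt-Cytb by 0.44 ± 0.09 and mt-Nd4 by 0.33 ± 0.11. The calls for mt-Nd6, mt-Cytb and mt-Nd4 were lost within D503, those for mt-Cytb and mt-Nd4 with the index as a covariate, and that for mt-Nd4 without mouse 13, 24, 27 or 32 (edgeR adjusted p = 0.0563, 0.0565, 0.0579 and 0.0615).

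Among the markers of other cells, Apoa4 (1396 CPM at the ileum median, 11.2 in the colon, -6.52 ± 0.42), Apoa1 (-6.29 ± 0.37), Lct (-5.88 ± 0.41) and Mttp (-5.60 ± 0.31) led the enterocyte list, Lyz1 (1000 CPM against 1.30, -9.31 ± 0.27) and the alpha-defensins Defa30 (-9.56 ± 0.27), Defa24 (-8.97 ± 0.29) and Defa22 (-8.88 ± 0.27) the Paneth list, whose members share sequence. Olfm4, a stem cell marker of the small intestine that is known to be low in mouse colon, fell by 8.73 ± 0.51, Ccnb1 by 2.30 ± 0.52, Smoc2 by 2.27 ± 0.14 and Top2a by 1.91 ± 0.17. Car1 (9.56 ± 0.45), Aqp8 (8.89 ± 0.24) and Slc37a2 (5.88 ± 0.38) led the colonocyte list with Ly6g (0 counts over the ileum libraries and 229 over those of the colon), and Tmigd1, Ms4a12 and Ceacam20 of that list were lower. Muc2 (2.94 ± 0.25), Spdef (2.44 ± 0.19) and Clca1 (2.36 ± 0.38) rose with Retnlb in the goblet list. Tuft cell markers had 3 of 7 higher (among them Alox5ap, 1.55 ± 0.32, and Dclk1, 0.84 ± 0.24), on sums of 12.9 to 67.2 CPM in the ileum and 27.7 to 83.2 in the colon. Immune markers summed to at most 22.3 CPM in any library, with Lyz2 (-5.17 ± 0.60) and C1qa (-2.31 ± 0.51) lower and Ptprc, the antigen gated out in the sort, not passing (0.94 ± 0.42, edgeR adjusted p = 0.0687). Ptprc did pass by limma-voom, by DESeq2 (adjusted p = 0.0233), without the filter on low counts and without mouse 11, 12, 13 or 16 (0.0442, 0.0366, 0.0486 and 0.0461), and was at 0.29 within D503 and 0.24 with the index as a covariate. Stromal, endothelial and muscle markers summed to at most 60.9 CPM and 0 of 2 tested passed, and of 4 neuron and glia markers Elavl4 (0.88 ± 0.32) was higher and Chrna3 (-4.21 ± 0.48) and Ret (-0.34 ± 0.12), which EECs may also express, were lower. Cela1 (3.61 ± 0.18) was the only acinar marker tested, and Prss2 and Amy2a5 had 0 counts.

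Several of these marker calls were lost in the fits by index. Within D503 they were those for Tmigd1, Ms4a12, Ceacam20, Alox5ap, Dclk1, Ccnb1 (-1.54), C1qa (-0.53), Elavl4 and Ret, and with the index as a covariate those for Ms4a12, Dclk1, Elavl4 and Ret. Elavl4 also lost its call without mouse 13 (edgeR adjusted p = 0.089) or mouse 31 (0.056), and Ms4a12 without mouse 12, 16, 19 or 29 (0.0658, 0.0659, 0.0602 and 0.0565). Apoa4 was at -5.57, Lyz1 at -7.90, Defa30 at -6.56 and Defa24 at -7.36 within D503, and Clca1 was at 1.75 and Tmigd1 at -2.13 with the index as a covariate.

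By the lowest p over all genes, the colon was marked by Aqp8, Oit1 (32.3, 42.5 and 56.8 CPM in the ileum, 159, 272 and 373 in the colon, 2.55 ± 0.07, edgeR adjusted p = 3.18e-18), the sialic acid enzyme Gne (2.26 ± 0.07), Mboat1 (3.06 ± 0.10), the hexokinase Hk1 (2.44 ± 0.08), Magi2 (3.02 ± 0.10), Cd9 (2.09 ± 0.07), Acsf2 (2.34 ± 0.08), Lpo and Far1 (2.87 ± 0.10). The ileum was marked by Serpina1e (-8.75 ± 0.20), which has near-identical paralogs, Malrd1 (237, 323 and 403 CPM in the ileum, 44.2, 64.5 and 91.5 in the colon, -2.33 ± 0.07), the galectin Lgals9 (-2.76 ± 0.08), the glycerol phosphate enzyme Gpd1 (-1.99 ± 0.06), the adhesion receptor Adgrd1 (-6.09 ± 0.14), Adcy8, Rcn1 (-3.03 ± 0.10), ornithine aminotransferase Oat (-2.08 ± 0.08), the carbohydrate-response factor Mlxipl (-2.26 ± 0.08) and the proline and ornithine enzyme Aldh18a1 (-2.01 ± 0.07). All 20 were without overlap between the regions, against 7.42% of all genes. Genes picked by the lowest p in the same libraries could hardly be otherwise, so this adds no support.

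The regional difference was seen in each surgical group. It was called for 4494 of 14468 genes in S_al, 4272 in S_wm and 4905 in VSG, with 5, 5 and 6 mice. Of these, 2342 were higher and 2152 lower in the colon in S_al, 2173 and 2099 in S_wm, and 2500 and 2405 in VSG. A joint test for a regional difference that depended on condition called 0 genes (0%) by edgeR, with 1288 genes at an unadjusted p under 0.05 and a lowest adjusted p of 0.161. DESeq2 called 47, the fit without a filter on low counts 455, and the fit without S_al mouse 32 called 135. Of the 16 peptide genes tested, 4 were higher and 9 lower in S_al, 3 and 11 in S_wm, and 3 and 11 in VSG. The sign was the same in all 3 conditions for 14 of 15 called members, Pyy being the exception. Of the 22 Hox genes tested 17, 15 and 19 were higher and 0 lower in the 3 conditions, and 19 of 20 called members kept their sign. Other lists varied: the sign was kept by 19 of 19 called gut patterning factors, 15 of 19 cyclic nucleotide genes and 8 of 10 serotonin genes. Because members were called on the mean of these same 3 differences, agreement of sign was largely set in advance and adds no support. The share over all called genes was not computed.

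By interaction p, the first gene was Acaa2, of fatty acid oxidation, with a regional difference of -0.41 in S_al, 0.34 in S_wm and 0.61 in VSG. Next came the bicarbonate transporter Slc4a8 (1.04, -0.18 and -0.32), Lpin2, of triglyceride synthesis (0.98, 0.10 and 0.40), and the sialyltransferase St6gal1 (2.16, 3.39 and 3.75). Each had an interaction adjusted p of 0.161 by edgeR and between 0.00464 and 0.00802 by DESeq2, so the call depended on the tool, and over all 24 alternatives the adjusted p of the 4 genes ran from 5.12e-06 (no filter) to 0.774 (without mouse 12). In the mean regional difference, Acaa2 lost its call in both fits by index and in 14 of the 16 fits that left out 1 mouse. Lpin2 lost that call within D503. Glp1r, chosen after its values were seen, was at 5.46 ± 2.96 CPM (SD, n = 5) in the ileum of S_al mice, 12.5 ± 3.63 in S_wm and 14 ± 7.36 in VSG, and at 45.2 ± 17.9, 27.7 ± 7.77 and 33.4 ± 8.35 in the colon. Its regional difference was 3.12 ± 0.30, 1.15 ± 0.27 and 1.34 ± 0.24 (edgeR interaction adjusted p = 0.249, DESeq2 0.00464, range over the alternatives 1.94e-08 to 0.774).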

How the data were processed

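Neurod1-cre-eYFP cells sorted from ileum and colon with rectum were profiled by total RNA sequencing (SMARTer stranded pico kit, single-end reads). The authors aligned the reads to GRCm38 with STAR 2.5.1 and deposited raw read counts per gene for their GRCm38.91 annotation; whether the counting used strand was not stated. Per the labels, CASAVA was also used. Here the deposited counts of 32 libraries were filtered with filterByExpr, scaled by TMM and fitted with edgeR 4.0.16 (R 4.3.3; glmQLFit, robust) with mouse as a fixed block and a regional difference in each condition, and the mean of the 3 differences was tested by glmQLFTest, and against 2-fold by glmTreat, with Benjamini-Hochberg adjustment at 0.05. Depth was 4648651 to 11478914 counts per library, and the common biological coefficient of variation was 0.248. SE is the difference divided by the root of the F value. On counts simulated from these libraries over all genes tested, 46.5% of genes changed by 0.5 on the log2 scale and 73.5% of those changed by 1 were recovered in the colon against ileum contrast. Each run changed only 200 of the 14468 genes, whereas 51.4% were called in the data. The adjusted p depends on that share, so these percentages do not give the recovery for the data themselves.

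Ileum and colon libraries were paired because the same number marks the same animal. Same-numbered deviations correlated at 0.0941 (median of 16 mice, range 0.0231 to 0.319), over 0.1 in 7. Libraries of the same region and condition differed beyond sampling noise (chi-square per gene of at least 8.14 over 70 pairs), so none was a copy of another in its group. Pairs from different groups were not compared in this way. One library had low RNA integrity by the authors' account and is not named there. Levels are CPM over the scaled library size; TPM used exon lengths of GENCODE M21, to which 53360 genes matched, and positions are on GRCm38. Promoter sequences are RefSeq's. p-values of the paired fit rest on how the within-animal regional difference varied over these 16 animals, since the block takes out differences in level between animals.

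The gene lists and the members were chosen with earlier results of these data known. Named were each measured peptide gene, up to 4 genes per direction with the largest difference in each other list, Neurod1, Chga, Chgb, Cdx2, the Hox genes, 10 genes per direction by p and 4 by interaction p; genes with under 3 counts in a region got no fitted fold. Results for 4 genes named by this rule are not reported here. Alternatives were no mouse block, limma-voom, all 48 libraries, DESeq2 and its size factors, no filter, a stricter filter, library index as a covariate, index D503 alone, a 4-fold bound and leaving out each mouse. Duodenum libraries entered only the 48-library fit.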

Additional observations from a re-analysis of the deposited data

Results flagged for a closer look

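In 15 of 168 groups of 5 or 6 libraries (28 measures, each region and condition), 1 library stood farther from the rest than Dixon's 95% limit allows; chance gives about 1 group in 20, and no weighing was made. Of these, 5 came from VSG mouse 25. In its ileum Pyy was at 1721 CPM (next library 833), Sct at 2851 (1539) and Ppy at 13.2 (4.54), and in its colon Insl5 was at 340 CPM (136) and Ppy at 122 (42.4). The Ppy value was thus high in both regions of that animal.

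Other single libraries concerned peptides too. Ppy was at 98.3 CPM in the colon of S_wm mouse 29 (next 47.9), Sct at 737 in the colon of S_al mouse 12 (439), Tac1 at 547 in the ileum of S_wm mouse 27 (325) and Ucn3 at 40.2 in the ileum of VSG mouse 18 (15.3). Nmu, at very low counts, was at 4.17 CPM in the ileum (1.28) and 0.125 in the colon (0) of S_wm mouse 31 and at 0.732 in the colon of S_al mouse 13 (0.121).

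Outside the peptides, summed colonocyte markers were at 964 CPM in the ileum of S_al mouse 12 (next 475), the animal whose region labels disagreed, and the median of the colon libraries was 2196. Summed acinar markers were at 6.86 CPM in the ileum of S_al mouse 32 (4.06). The ileum library of S_wm mouse 31 had 7421700 counts (next 6655700).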

How the results depend on the processing

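Without the mouse block, the unpaired fit called 7162 genes instead of 7441 (6992 shared), and Pyy, Chga, Scn2a, Cry1, mt-Nd4, Ret and Acaa2 lost their call; the block changed no other call named in the text. Limma-voom, all 48 libraries, DESeq2, its size factors and both filters kept the regional counts within 1.5 times. Of 245 genes followed across the alternatives, 232 were called, and among these the direction turned only for Scn2a, to 0.33 within index D503. For the genes not called, a change of sign was counted only where the alternative passed, and none was. Values of the 245 genes moved by over 1.5-fold for 36 within D503, 20 with the index as a covariate, 16 by limma-voom and 8 by DESeq2. Index D503 alone (8 ileum and 4 colon libraries, so fewer samples) gave 3896 genes, 1854 higher and 2042 lower, and 1168 over 2-fold, 554 higher and 614 lower. With the index as a covariate 5227 genes were called, and 2769 within S_wm. A 4-fold bound left 812 genes, 401 higher and 411 lower.

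Counts of condition dependence were 0 in the paired edgeR fit and moved with the setting. DESeq2 called 47 genes jointly, 120 for VSG minus S_al and 11 for S_wm minus S_al. Without the filter on low counts these were 455, 435 and 176, with 87 for VSG minus S_wm. That fit gave 303 of 14468 genes an SE under 0.5 times its value with the filter; the cause was not tested. Leaving out 1 mouse gave 0 to 135 jointly, 0 to 389 for VSG minus S_al and 0 to 83 for S_wm minus S_al, the highest in each case without S_al mouse 32. The regional count ranged from 7142 to 7451 without 1 mouse, and that over 2-fold from 1798 to 1923. Depth limits genes near 1 CPM, such as Nmu, Cntn3 and Hcar2.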

Other observations

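Lpo, a peroxidase of mucosal secretions, was among the genes with the lowest p and had an uneven level within the colon. It was at 225 CPM in mouse 25, 215 in mouse 27, 181 in mouse 28 and 198 in mouse 30, and between 5.98 and 31.4 CPM in the other 12 colon libraries, while the ileum libraries held 6 counts in all. Those 4 mice were VSG and S_wm animals, and no comparison was made between them and the rest. Its fitted difference was 9.58 ± 0.26, 10.24 within index D503, 8.83 with the index as a covariate and 8.99 without mouse 27.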
